A study of Mus musculus with 6 samples.

Results

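The imprinted genes Dlk1, Meg3, H19, Mest, Peg3, Cdkn1c, Grb10, Plagl1, Ndn and Phlda2 were examined in mouse embryonic fibroblasts labelled as Lasp1 knockout and in wild-type fibroblasts. The members were the probes whose gene symbol in the supplied platform annotation was one of these 10 names, which gave 21 probes for 9 genes among 45281 probes and 19057 genes in all. H19 had no probe under its symbol there and was not analysed here. The arrays held RNA from Lasp1-/- fibroblasts (Lasp1 knockout, 3 arrays) and from Lasp1+/+ fibroblasts (wild type, 3 arrays), all on the C57Bl/6NCr strain. LASP1 is an actin-binding LIM and SH3 domain protein of focal adhesions, and the series title sets the comparison in the context of cell migration and tumour formation. The labels give neither the age of the embryos, nor their number or sex, nor how the Lasp1 gene was disrupted, and they do not say that the arrays came from separate cultures. The p-values therefore rest on the variation among these arrays, and that variation may be technical.

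Imprinted genes are transcribed mainly from the chromosome inherited from a single parent, because DNA methylation laid down in the egg or the sperm marks a control region nearby. Many of them act on fetal growth, and in broad terms those expressed from the paternal chromosome promote growth while those expressed from the maternal chromosome restrain it. Dlk1, Mest, Peg3, Plagl1 and Ndn are expressed from the paternal copy. Meg3, H19, Cdkn1c and Phlda2 are expressed from the maternal copy, as is Grb10 in most tissues other than neurons. Fibroblasts from embryos still express many of these genes, which fall silent in most tissues after birth. The arrays measured the total RNA of each gene and carried no information on which parental copy was read.

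The results turned mainly on Dlk1 and its neighbour Meg3 on chromosome 12 and on Mest on chromosome 6, so their promoter windows are shown first. Each window runs from 250 bases before to 50 bases after an annotated start (RefSeq, build GRCm38.p6), written 5′ to 3′ on the strand of the gene. Mest is shown with 2 windows because RefSeq annotates separate starts for it. Capitals mark matches on either strand to TGCCGC (the motif bound by ZFP57, a protein that protects imprints), GGGGCCCC (the motif of PLAGL1), GGGCGG (the GC box) and TATAAA (the TATA box).
Dlk1, chr12:109452573-109452872, plus strand: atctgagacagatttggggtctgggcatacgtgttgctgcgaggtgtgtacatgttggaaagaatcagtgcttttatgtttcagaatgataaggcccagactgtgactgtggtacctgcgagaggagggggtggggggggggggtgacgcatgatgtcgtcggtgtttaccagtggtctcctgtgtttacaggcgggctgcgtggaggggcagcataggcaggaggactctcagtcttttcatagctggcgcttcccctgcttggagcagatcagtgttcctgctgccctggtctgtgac
Meg3, chr12:109540746-109541045, plus strand: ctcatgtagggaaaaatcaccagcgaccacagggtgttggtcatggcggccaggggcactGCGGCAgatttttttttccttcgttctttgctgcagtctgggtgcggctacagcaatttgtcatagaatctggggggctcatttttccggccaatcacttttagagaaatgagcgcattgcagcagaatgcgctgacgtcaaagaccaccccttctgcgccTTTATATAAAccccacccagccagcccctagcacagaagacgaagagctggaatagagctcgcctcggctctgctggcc
Mest, upstream start, chr6:30733256-30733555, plus strand: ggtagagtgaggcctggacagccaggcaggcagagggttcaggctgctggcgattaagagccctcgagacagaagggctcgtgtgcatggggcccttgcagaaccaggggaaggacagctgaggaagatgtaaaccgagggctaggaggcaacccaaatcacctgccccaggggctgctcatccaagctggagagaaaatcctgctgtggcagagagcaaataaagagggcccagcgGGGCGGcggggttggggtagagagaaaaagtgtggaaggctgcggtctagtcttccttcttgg
Mest, downstream start, chr6:30737800-30738099, plus strand: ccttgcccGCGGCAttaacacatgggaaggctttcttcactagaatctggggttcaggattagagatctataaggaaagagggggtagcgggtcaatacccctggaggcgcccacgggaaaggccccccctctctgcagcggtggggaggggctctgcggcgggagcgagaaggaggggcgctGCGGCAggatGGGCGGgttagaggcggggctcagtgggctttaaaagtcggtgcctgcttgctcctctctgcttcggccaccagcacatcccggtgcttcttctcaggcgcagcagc

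The Meg3 window held a pair of overlapping TATA matches on opposite strands, beginning at positions -29 and -25 from the start, and a ZFP57 motif at -190. The downstream Mest window held ZFP57 motifs at -242 and -67 and a GC box at -57, and the upstream window held a GC box at -13. The Dlk1 window held none of the motifs, which says only that these letters are not in this window. The number of CpG dinucleotides was 9 in the Dlk1 window, 13 in the Meg3 window and 8 and 17 in the upstream and downstream Mest windows, against a median of 7 over 32851 promoter windows of the same length. Of the members, 8 genes had 12 windows in all, and the second window of Grb10 stood apart with 45 CpG dinucleotides, more than 98.1% of all windows. A ZFP57 motif was found in 5 of the 12 windows (Meg3, Mest, Grb10 and Plagl1, with both of the nearly coincident downstream Mest windows counted), and 11.6% of all windows hold one. A GC box was found in 7 of the 12 and in 35.7% of all windows. A TATA match was found in 2 (Meg3 and Phlda2) and in 13.6% of all windows. A PLAGL1 motif was found in 1 (Peg3) and in 1.1% of all windows. A match is a string of letters and not evidence that a protein binds there.

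Every array had a median intensity of 1000 in the deposited table and an upper quartile of 2018 to 2330. No detection calls were used here, so a value near 1000 cannot be told from background and a fold of such a dim gene may be understated. Lasp1 was 2.83-fold lower in the knockout at its brightest probe (limma adjusted p = 1.17e-05), whose place relative to the disruption was not determined. That probe still read 49770 to 51904 in knockout arrays, far above the array median, against 135295 to 148809 in wild-type arrays. A dimmer Lasp1 probe (ILMN_2879745) was 4.10-fold lower, with means of 3097 in knockout and 12502 in wild type (limma adjusted p = 0.00018 over all probes). The remaining Lasp1 probe (ILMN_2596851) lay near the array median and was lower but not called (limma adjusted p = 0.121). All 9 fibroblast markers (Col1a1, Col1a2, Col3a1, Thy1, Pdgfra, Pdgfrb, Vim, Fn1 and S100a4) lay above the median of all probes. Their summed intensity was 726926 to 781606 in knockout arrays and 870542 to 988796 in wild-type arrays, with Col1a2, Thy1 and Pdgfrb lower. The summed intensity of 6 epithelial markers was 8144 to 8354 in knockout arrays and 20052 to 25092 in wild-type arrays; Krt14 and Krt8 fell, and Krt5 and Epcam lay below the probe median in both groups. Krt14 made up most of that difference, with a mean of 2565 in knockout and 15557 in wild type, while Krt18 (log2 0.18 ± 0.08) and Cdh1 (0.04 ± 0.08) were not called. The 5 neural markers summed to 8853 to 11156 in knockout and 7584 to 8924 in wild type, with Nes higher and Sox10 lower. The 5 chondrocyte markers summed to 52475 to 61270 in knockout and 46882 to 54603 in wild type, with Col2a1 higher and Sox9 lower. The mean of Col2a1 was 18527 in knockout and 1207 in wild type, a 15.2-fold rise (limma adjusted p = 7.14e-07). Sox9 was brighter, with means of 34290 in knockout and 47448 in wild type, and Acan, Matn1 and Col9a1 were not called. Of 4 measured sex genes (Xist, Eif2s3y, Kdm5d and Uty), limma called none (4 of 5 listed had a probe, and adjusted p was 0.241 or more for each). In RNA from a whole culture, fewer cells of a type and less RNA per cell cannot be told apart, and the part that these marker differences have in the results below was not tested.

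The comparison of genotypes asks which of these genes differ in RNA level when Lasp1 is disrupted. Dlk1 rose and Mest fell in knockout fibroblasts, and the other 7 measured genes did not pass the test. Dlk1 was 1.77-fold higher and Mest 1.31-fold lower at their brightest probes. Over all 19057 genes limma called 6.28%, with 2.19% higher and 4.08% lower, and among the 12577 genes above the probe median in at least 1 group it called 9.51%. The 2 called members out of 9 measured are 22.2%, a share over so few genes that it is given as a description. The median log2 difference (knockout minus wild type throughout) was 0.10 over the 9 genes and -0.02 over all genes. The groups did not overlap in 4 of the 9 genes (Dlk1, Mest, Grb10 and Phlda2), where they did not overlap in 21.3% of all genes and in 27.6% of those above the probe median. Of the 9 genes, 8 lay above the probe median in at least 1 group, and Plagl1 did not.

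**Figure D1:**
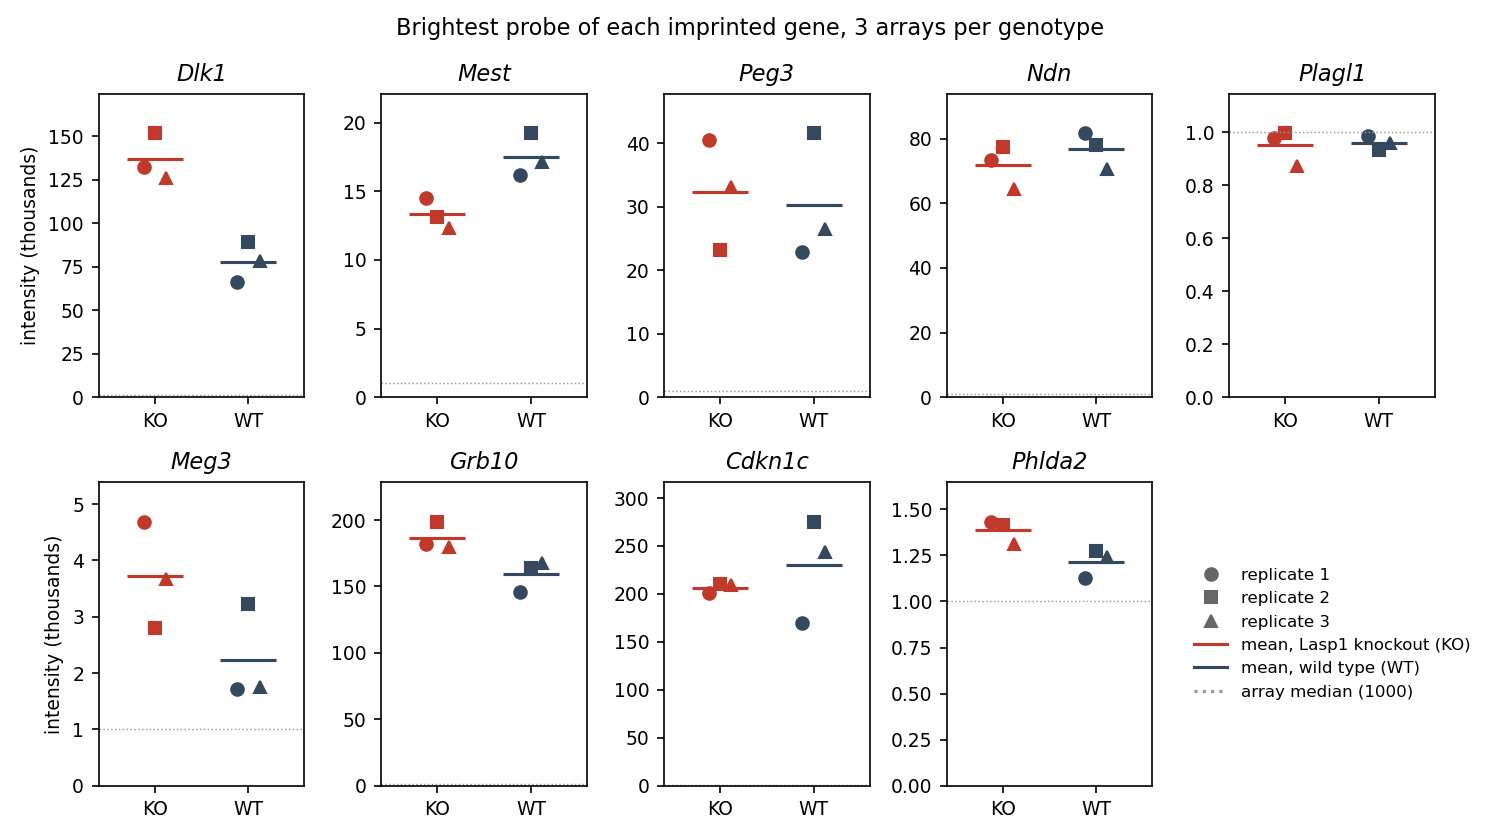
Intensity (each axis linear from 0 and in units of 1000) at the brightest probe of each of the 9 measured genes, with 3 Lasp1 knockout arrays (KO) left of 3 wild-type arrays (WT). Symbols mark the replicate, horizontal lines the group means and dotted lines the array median of 1000; Dlk1, Mest, Grb10 and Phlda2 are the genes whose groups do not overlap.

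Dlk1 codes for a transmembrane protein with EGF-like repeats, related to Notch ligands, that is shed from preadipocytes and holds back their differentiation into fat cells. At its brightest probe (ILMN_2771738) the knockout arrays read 132054, 151674 and 125881, and the wild-type arrays read 65975, 88891 and 78153. The lowest knockout array therefore lay above the highest wild-type array. The means were 136536 ± 13468 in knockout and 77673 ± 11466 in wild type (SD, n = 3 each), a log2 difference of 0.82 ± 0.12 (SE) with a 95% interval of 0.55 to 1.09 and a limma adjusted p of 0.00366. A dimmer probe of the same transcript (ILMN_1244618) read 73843, 80693 and 71671 in knockout arrays, against 32067, 50155 and 44739 in wild-type arrays. The groups were again separate, with a 1.81-fold difference (log2 0.86 ± 0.15) and an adjusted p of 0.0124 (limma, all probes). That dimmer probe missed the threshold in 3 of the fits with an array left out, with an adjusted p of 0.0655 when knockout replicate 2 was dropped, 0.0675 for knockout replicate 3 and 0.0546 for wild type replicate 3. Both probes were called with all arrays in the fit, where 3.9% of all probes were. An exact permutation test (two-sided) gave 0.1 at either probe, which is the lowest p available with 3 arrays in each group.

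Because Dlk1 is known for its part in fat cell development, the adipocyte markers are given beside it. Of the 5 (Pparg, Adipoq, Fabp4, Plin1 and Cebpa), Fabp4 and Plin1 lay below the probe median in both groups and Adipoq fell 4.05-fold. Their summed intensity was 6785 to 7015 in knockout arrays and 9991 to 10919 in wild-type arrays. Adipoq made up most of that difference, with a mean of 1010 in knockout, near the array median, and 4105 in wild type. Cebpa was not called (log2 -0.18 ± 0.07, limma adjusted p = 0.210). Pparg, the master regulator of fat cell fate, read 3251 ± 227 in knockout and 3555 ± 407 in wild type (SD, n = 3 each; limma adjusted p = 0.597). The part of the adipocyte markers in the Dlk1 result was not tested.

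Meg3 is a long noncoding RNA read from the maternal copy of the same domain as Dlk1, and no protein-coding gene starts between the pair in RefSeq. Its brightest probe (ILMN_1227149) read 4691, 2807 and 3666 in knockout arrays and 1718, 3219 and 1761 in wild-type arrays. The groups overlapped, since wild type replicate 2 lay above knockout replicate 2. The mean was 1.71-fold higher in knockout, with a log2 difference of 0.77 ± 0.25 (SE) and a limma adjusted p of 0.123. The 95% interval of 0.20 to 1.34 took in the size of the Dlk1 difference. With 1 array left out, the log2 difference ranged from 0.59 to 1.07 (limma adjusted p 0.00289 to 0.394) and passed only without wild type replicate 2. It also passed after quantile normalization (0.83, adjusted p = 0.00729) and with array weights (0.93, adjusted p = 0.00508), and it was 0.37 with the mean of all Meg3 probes (adjusted p = 0.141). The other Meg3 probes lay near the array median. ILMN_2601176 read 1023 to 1297 in knockout and 921 to 1100 in wild type, and ILMN_2500067 read 909 to 979 in knockout and 870 to 951 in wild type.

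Of the 7 genes listed for the Dlk1-Meg3 domain, 6 had a probe, 2 rose (Dlk1 and Dio3) and 4 did not pass, with a median log2 difference of 0.59. The count and median include Dlk1 itself. Limma called 2.19% of all genes higher, and the median log2 difference of all genes was -0.02. Dio3, the deiodinase that inactivates thyroid hormone, read 1493, 1418 and 1498 in knockout arrays, against 1039, 1032 and 1001 in wild-type arrays. The groups were separate and narrow, and the log2 difference was 0.52 ± 0.07 (SE; limma adjusted p = 0.00217). Its wild-type level lay at the array median, so the size of the difference may be understated, and it was 1.12 after normexp background correction. Rian, another noncoding RNA read from the maternal copy, had 6692, 3661 and 4094 in knockout arrays and 2090, 4700 and 2587 in wild-type arrays. As in Meg3, knockout replicate 1 was the highest array and wild type replicate 2 lay among the knockout arrays, and it did not pass (0.66 ± 0.30, limma adjusted p = 0.281). Rtl1, a retrotransposon-derived gene of the paternal copy, differed by 0.12 ± 0.19 (adjusted p = 0.850), and Begain at the edge of the domain by -0.09 ± 0.07 (adjusted p = 0.625).

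Mest codes for a membrane-bound protein of the alpha/beta hydrolase fold family and is known as a marker of growing mesoderm and of expanding fat tissue. At its brightest probe (ILMN_2642417) the knockout arrays read 14513, 13144 and 12351, and the wild-type arrays read 16218, 19244 and 17114. All knockout arrays were lower than all wild-type arrays. The means were 13336 ± 1093 in knockout and 17525 ± 1554 in wild type (SD, n = 3 each), and Mest fell by 0.39 ± 0.09 (SE) on the log2 scale (95% interval -0.60 to -0.18, limma adjusted p = 0.0381). A second probe (ILMN_2642418) read 7127, 6489 and 6216 in knockout arrays and 8751, 8765 and 8099 in wild-type arrays, a log2 difference of -0.37 ± 0.08 (limma adjusted p = 0.0280 over all probes). The third (ILMN_2846904) read 5194, 5825 and 5323 in knockout arrays and 7512, 7867 and 6075 in wild-type arrays. Its groups were also separate and its log2 difference of -0.39 ± 0.10 was of the same size, but it did not pass (adjusted p = 0.0816). The call of Mest lies near the threshold. The brightest probe missed the threshold when knockout replicate 2 (limma adjusted p = 0.131), knockout replicate 3 (0.177), wild type replicate 2 (0.0694) or wild type replicate 3 (0.133) was left out, while its log2 difference stayed between -0.46 and -0.32 over all fits with an array left out.

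On chromosome 6 the gene Cep41, beside Mest, fell as well. Of 4 listed, 2 fell (Mest and Cep41) and 2 did not pass, and the median log2 difference was -0.35. The count and median include Mest itself. Limma called 4.08% of all genes lower, and the median log2 difference of all genes was -0.02. Cep41, which codes for a centrosomal protein of cilia, read 6199, 4905 and 5496 in knockout arrays and 6687, 8217 and 7500 in wild-type arrays. The groups were separate, with a log2 difference of -0.43 ± 0.11 (limma adjusted p = 0.0482). Copg2, a coat protein of Golgi vesicles whose gene adjoins Mest, read 2410, 2221 and 2210 in knockout arrays and 3043, 2735 and 2718 in wild-type arrays. Its groups were separate and its log2 difference was -0.31 ± 0.08, with an adjusted p of 0.0505 that missed the threshold, and 1 of its 2 probes went that way. Cep41 was called in 5 of 13 alternative settings.

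**Figure D2:**
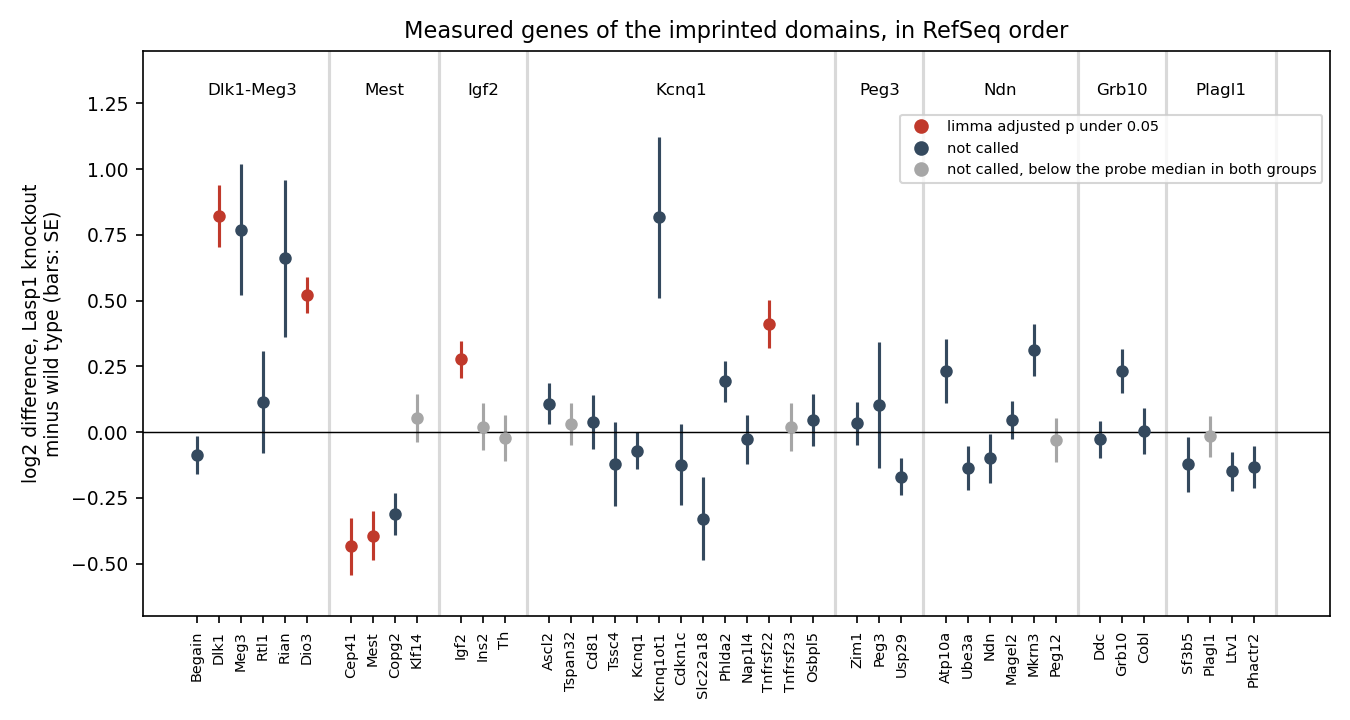
Log2 difference (Lasp1 knockout minus wild type, vertical axis, bars are SE) of the measured genes of each member's imprinted domain, in RefSeq order along the chromosome, at the brightest probe. Called genes are Dlk1 (0.82), Dio3 (0.52), Igf2 (0.28) and Tnfrsf22 (0.41) above 0 and Cep41 (-0.43) and Mest (-0.39) below it.

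Grb10, Cdkn1c and Phlda2 are members known for restraining growth. Grb10 is an adaptor protein that binds the insulin and IGF1 receptors and dampens their signal. Its brightest probe (ILMN_2518412) read 181627, 198824 and 179420 in knockout arrays and 145926, 163636 and 167681 in wild-type arrays. The groups did not overlap, which held for 21.3% of all genes, but the log2 difference of 0.23 ± 0.08 did not pass (95% interval 0.04 to 0.42, limma adjusted p = 0.159). It passed after quantile normalization (0.28, adjusted p = 0.0329). The 2 dimmer probes, designed on the cDNAs AK012646 and AK080969, had overlapping groups and log2 differences of 0.63 ± 0.23 and 0.38 ± 0.14 (adjusted p = 0.203 and 0.204 over all probes). ILMN_2546546 read 5592, 4234 and 4083 in knockout arrays and 2200, 4418 and 2663 in wild-type arrays, so that wild type replicate 2 lay among the knockout arrays. With 1 array left out, its difference ranged from 0.42 to 0.92 (adjusted p 0.00202 to 0.511), and it passed only without wild type replicate 2.

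Cdkn1c, the cyclin-dependent kinase inhibitor p57, read 200515, 210296 and 209049 in knockout arrays and 169624, 275381 and 244068 in wild-type arrays. The knockout arrays lay within 1.05-fold of each other and inside the wild-type range, whose ends were 1.62-fold apart. The log2 difference was -0.12 ± 0.15 (95% interval -0.47 to 0.22, limma adjusted p = 0.782), and with 1 array left out it ran between -0.33 without wild type replicate 1 (adjusted p = 0.0517) and 0.022 without wild type replicate 2 (adjusted p = 0.970). Phlda2, a small pleckstrin homology domain protein that limits placental growth in the mouse, read 1434, 1416 and 1310 in knockout arrays and 1126, 1274 and 1242 in wild-type arrays. The groups were separate but close to the array median, and the log2 difference of 0.19 ± 0.08 did not pass (adjusted p = 0.224).

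Both genes lie in the Kcnq1 domain of distal chromosome 7, where 13 of 13 listed genes were measured. Of these, 1 rose, against 2.19% of all genes, and 12 did not pass (median log2 difference 0.03). The rise was in Tnfrsf22, a decoy receptor for the ligand TRAIL, which read 13600, 11374 and 11504 in knockout arrays and 9244, 8561 and 9564 in wild-type arrays. Its groups were separate (0.41 ± 0.09, limma adjusted p = 0.0288), 4 of its 5 probes were higher, and it was called in 4 of 13 alternative settings. Kcnq1ot1, the noncoding RNA that silences this domain on the paternal copy, read 7884, 6037 and 5936 in knockout arrays and 2417, 6622 and 3227 in wild-type arrays. Wild type replicate 2 lay inside the knockout range and the other wild-type arrays below it, and the log2 difference of 0.82 ± 0.31 did not pass (adjusted p = 0.181).

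Igf2, the growth factor whose gene neighbours H19, read 492834, 499237 and 487830 in knockout arrays and 424715, 406770 and 391258 in wild-type arrays. It was called at the threshold (0.28 ± 0.07, limma adjusted p = 0.0493) and in 4 of 13 alternative settings. Its only probe missed the threshold in the fit over all probes (limma adjusted p = 0.0505). The highest values of any probe on the arrays were 497168 to 557143. Igf2r, the receptor that clears IGF2 and is read from the maternal copy, was 0.27 ± 0.08 higher on the log2 scale and did not pass (adjusted p = 0.0817). Its knockout arrays read 57545 to 65660 and its wild-type arrays 49930 to 52603. At a dimmer Igf2r probe (ILMN_2931096) the groups overlapped, with a log2 difference of 0.21 ± 0.11 (limma adjusted p = 0.427 over all probes).

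Peg3, a large zinc finger protein of the paternal copy, read 40538, 23247 and 33136 in knockout arrays and 22944, 41594 and 26463 in wild-type arrays at its brightest probe. Values within each genotype spanned 1.74-fold in knockout and 1.81-fold in wild type. The log2 difference of 0.10 ± 0.24 lay well inside that spread (95% interval -0.44 to 0.64, limma adjusted p = 0.900), and a second probe with signal gave 0.05 ± 0.18. The 2 remaining Peg3 probes read 812 to 1017 over all arrays, in the background range. Usp29, which shares the Peg3 domain, and Zim1, next to it, were not called either.

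Ndn, which codes for necdin, a MAGE family protein that restrains the cell cycle in neurons, read 73497, 77468 and 64365 in knockout arrays and 81768, 78058 and 70543 in wild-type arrays. The groups overlapped and the log2 difference was -0.10 ± 0.09 (95% interval -0.31 to 0.11, limma adjusted p = 0.685). In its domain 6 of 7 listed genes had a probe and limma called none (adjusted p of 0.115 or more for each). Mkrn3, a ring finger protein, had separate groups of 2072 to 2392 in knockout and 1664 to 2063 in wild type (0.31 ± 0.10, adjusted p = 0.115). Snrpn had no probe under its symbol, and the brightest of 4 probes for Snurf, which shares its transcript, differed by -0.19 ± 0.11 (adjusted p = 0.495 over all probes); Snurf was chosen after its values had been seen.

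Plagl1, a zinc finger transcription factor placed upstream of many imprinted genes in mouse, read 814 to 997 in knockout arrays and 793 to 987 in wild-type arrays over its 3 probes. No array exceeded 1000 at any of them, so a level above background was not detectable with these probes and its differences of -0.02 to 0.05 carry no information on a change.

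**Figure D3:**
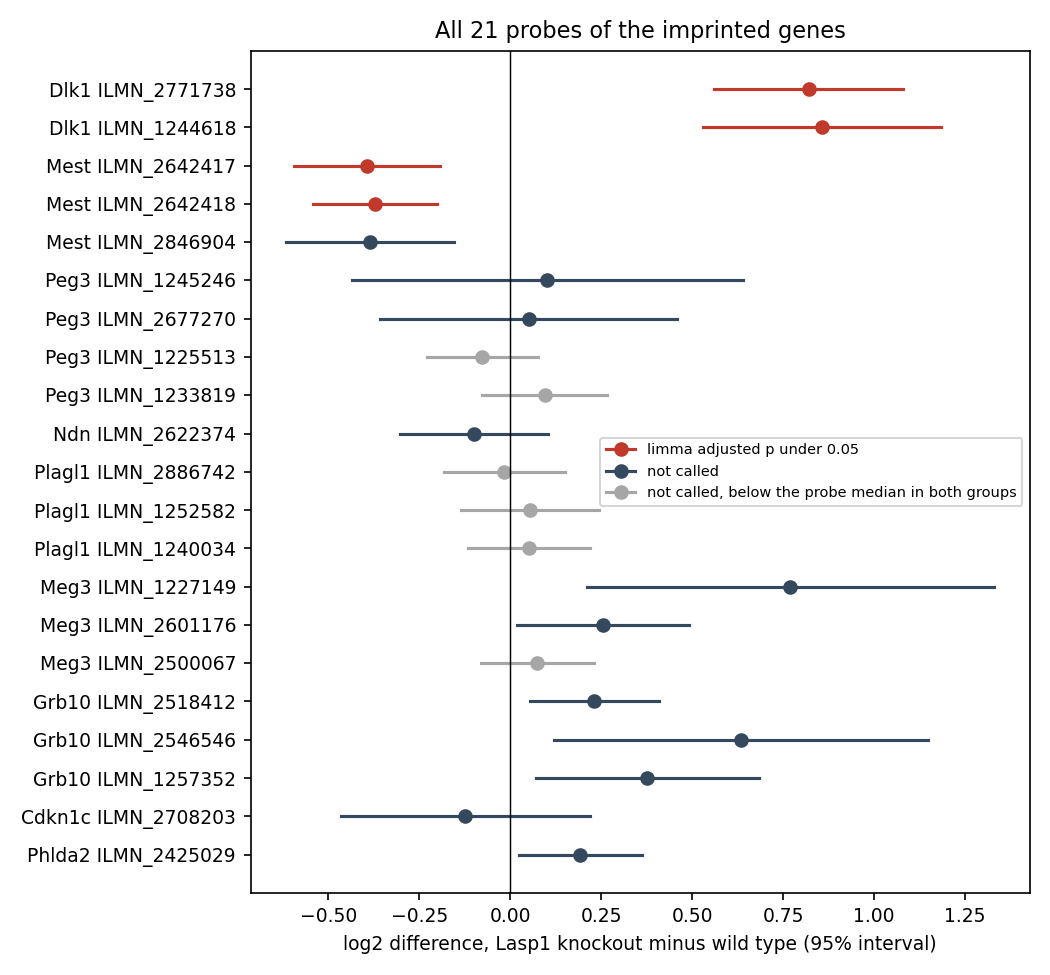
Log2 difference (horizontal axis, Lasp1 knockout minus wild type, with 95% limma intervals) of all 21 probes of the 9 genes, grouped by gene and ordered by wild-type intensity. The 4 called probes are both of Dlk1 (0.82 and 0.86) and 2 of Mest (-0.39 and -0.37). The intervals of Peg3, Ndn, Cdkn1c, Plagl1 and the Meg3 probe ILMN_2500067 include 0. The intervals are not adjusted for the number of probes, and those of some uncalled probes of Meg3, Mest, Grb10 and Phlda2 exclude 0.

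Over all 21 probes, limma called 2 higher and 2 lower and did not call 17, where 1.4% of all 45281 probes were called higher and 2.5% lower. Of the 21, 15 lay above the probe median in at least 1 group, with a median log2 difference of 0.19. The groups did not overlap at 7 of the 21 probes, against 18.5% of all probes. Where a gene had more than 1 probe above the probe median, those probes pointed the same way in Dlk1, Mest, Meg3, Grb10 and Peg3. By expressed copy the called members were both paternal, Dlk1 higher and Mest lower, and no maternally expressed member was called (limma, with Meg3, Grb10 and Phlda2 higher at an unadjusted p of 0.0130, 0.0206 and 0.0371).

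The array to array pattern differed among the members. The members Meg3, Peg3, Mest and Phlda2, and also Rian and Kcnq1ot1, had their highest knockout value in knockout replicate 1 and their highest wild-type value in wild type replicate 2. These are the arrays with the highest upper quartile of all probes, at 2283 and 2330, where the other arrays had 2018 to 2112. Xist, the noncoding RNA of the inactive X chromosome, had the same highest arrays, with 15361, 11097 and 11546 in knockout and 6851, 13721 and 6071 in wild type. Dlk1, Grb10, Cdkn1c and Ndn had their highest knockout value in knockout replicate 2 instead. Of these, Dlk1 and Cdkn1c still had their highest wild-type value in wild type replicate 2. The part of the upper quartile in these values was not tested. After quantile normalization, which makes the quartiles equal, the log2 differences were 0.83 for Meg3, 0.20 for Peg3 and -0.29 for Mest.

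**Figure D4:**
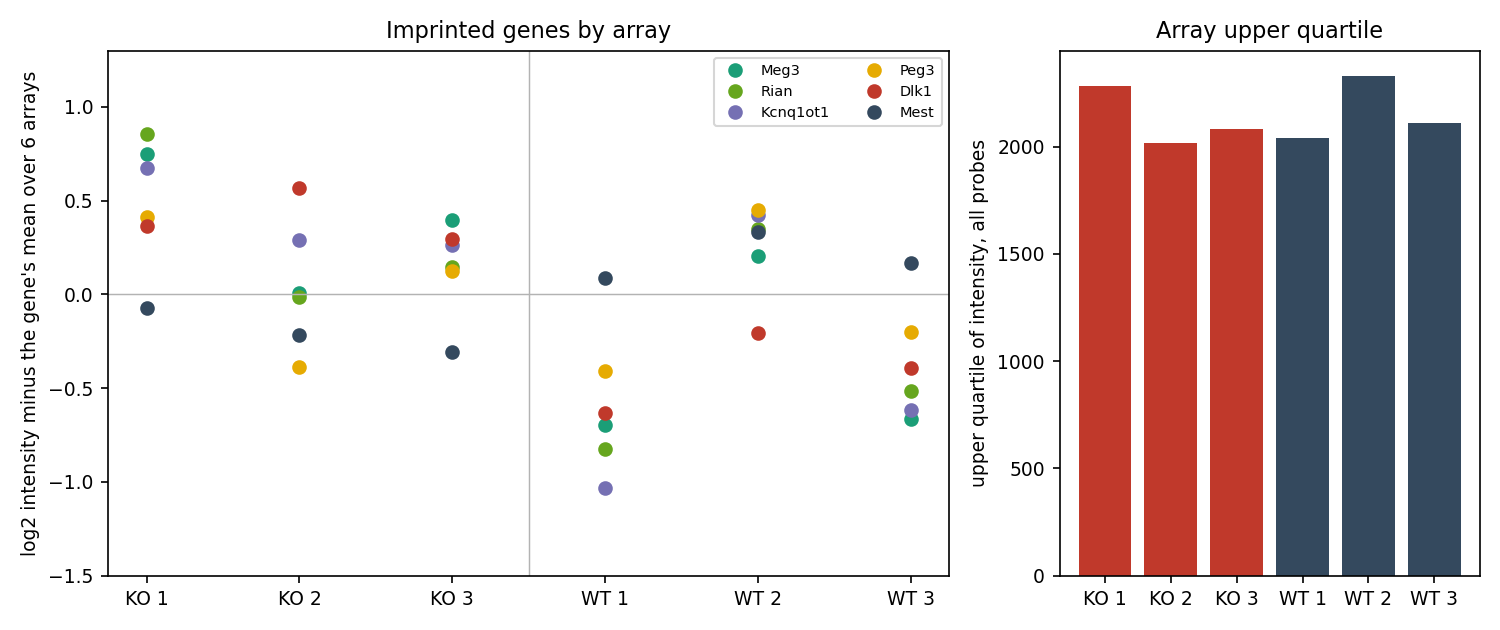
Left, log2 intensity of Meg3, Rian, Kcnq1ot1, Peg3, Dlk1 and Mest minus each gene's mean over the 6 arrays, by array, with Lasp1 knockout arrays (KO 1 to 3) left of wild-type arrays (WT 1 to 3). Right, upper quartile of intensity over all probes, which is highest in KO 1 (2283) and WT 2 (2330), the arrays where Meg3, Rian, Kcnq1ot1, Peg3 and Mest peak within their genotype.

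Other imprinted genes were read from lists written for this comparison. Of 56 listed, 50 had a probe, 4 rose, 2 fell and 44 did not pass, and 35 lay above the probe median in at least 1 group. Over all genes 2.19% rose and 4.08% fell. The median log2 difference of the 50 was 0.02, against -0.02 over all genes. Among 21 measured paternally expressed genes 3 rose (Dio3, Igf2 and Zdbf2) and none fell, and among 27 maternally expressed genes 1 rose (Tnfrsf22) and 2 fell (Dcn and Commd1). Zdbf2 rose by 0.34 ± 0.07 (limma adjusted p = 0.0202), with 3365 to 3534 in knockout arrays and 2699 to 2849 in wild-type arrays, although only 1 of its 2 probes was higher. Dcn, the collagen-binding proteoglycan decorin, which is imprinted in mouse placenta, fell by 0.64 ± 0.11 (adjusted p = 0.0109) and was lower at all 4 of its probes. Its knockout arrays read 67797 to 76775 and its wild-type arrays 100724 to 133514. Commd1, a copper handling protein, fell by 0.37 ± 0.08 (adjusted p = 0.0230), with 20765 to 22998 in knockout and 27213 to 30042 in wild type. Gnas, whose transcripts differ in the expressed copy, was 0.33 ± 0.09 lower and missed the threshold (adjusted p = 0.0512).

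Paralogs of the members, which are not imprinted apart from Magel2, gave 2 rises and 10 of 12 that did not pass. Among all genes 2.19% rose. Phlda1, a relative of Phlda2, read 22410, 17596 and 20187 in knockout arrays and 8200, 9700 and 9317 in wild-type arrays. The groups were far apart (1.14 ± 0.11, limma adjusted p = 0.000336), and Phlda3 was not called (0.0017 ± 0.12, adjusted p = 0.999). Grb14, an adaptor related to Grb10, rose by 0.36 ± 0.09 (adjusted p = 0.0411). The kinase inhibitors Cdkn1a (0.01 ± 0.12) and Cdkn1b (-0.10 ± 0.12) were not called, as Cdkn1c was not.

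Of 24 listed genes for DNA methylation and the upkeep of imprints, 21 had a probe, 2 fell, none rose and 19 did not pass, with a median log2 difference of -0.05. Among all genes 4.08% fell and 2.19% rose. Ctcf, an insulator protein of the H19-Igf2 domain, read 3945, 3797 and 3338 in knockout arrays and 4694, 5403 and 4880 in wild-type arrays. Its groups were separate and it fell by 0.44 ± 0.09 (limma adjusted p = 0.0216). Dnmt3l, the cofactor of de novo methylation in germ cells, fell by 0.37 ± 0.08 (adjusted p = 0.0235) at intensities of 1116 to 1230 in knockout and 1436 to 1606 in wild type, near the array median. The maintenance methyltransferase Dnmt1 (-0.26 ± 0.08, adjusted p = 0.110), its partner Uhrf1 (-0.36 ± 0.10, adjusted p = 0.0632) and the corepressor Trim28 (-0.31 ± 0.10, adjusted p = 0.0996) did not pass. The groups were separate in 6 of the 21 measured genes of this list, against 21.3% of all genes.

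The genes whose values over the 6 arrays were most like those of Dlk1 were Mmp13, Cyp11a1 and Ehd4, with Pearson correlations of 0.995, 0.993 and 0.992. For Mest they were Gngt2, Eipr1 and Shmt2, with 0.998, 0.997 and 0.996. Of 11984 genes compared, 124 exceeded 0.95 with Dlk1 and 540 with Mest. The genotype means were not removed, so a gene with a similar difference between genotypes can correlate highly. Shared regulation was not tested.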

How the data were processed

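The authors deposited probe intensities on a linear scale for 6 Illumina arrays, each column with a median of 1000; the labels' protocols give kit-isolated total RNA and biotinylated cRNA, and the scanner, software, background handling and genome build were each not given in the sources used here. Probes were named from the supplied annotation (34885 with 1 symbol, 18 with several and 10378 with none), and a gene was read at the probe with the highest mean log2 value. The log2 intensities entered a linear model in limma 3.58.1 under R 4.3.3 (lmFit, eBayes, 4 residual and 5.13 prior degrees of freedom), with genotype as the only term, once over 19057 genes and once over 45281 probes. Tests were two-sided, and the Benjamini-Hochberg adjustment ran over the whole gene or probe table, with 0.05 as the threshold. Single genes are given from the gene fit, and further probes of a gene from the probe fit. The exact permutation test took all 20 assignments of 3 and 3 arrays. A gene or probe counts as above the probe median if its mean in either group exceeds 991, the median of all probe means. The probe median and array medians stand in for a detection call, and precision is limited by the number of arrays. The limma fit was tested on simulated data.

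The members and lists were chosen with earlier results of these data known. Named genes were all members, Lasp1, Igf2, Igf2r, the sex genes, the called genes of each list above the probe median (up to 6 in each direction), and the 3 genes most correlated with each called member among those with a mean above that median; any further listed gene was picked with its values in view. The values were recomputed with quantile normalization, with normexp background correction (offset 50), without genes below the probe median, with a trend and robust setting in eBayes (statmod 1.5.0), with weights per array, with the probes of each gene averaged, with a block for replicate number, and with each array dropped in turn.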

Additional observations from a re-analysis of the deposited data

How the results depend on the processing

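Dlk1 was called in all 13 alternative settings in the gene fit, at its brightest probe or at the mean of its probes. The log2 differences were 0.71 to 0.92, with limma adjusted p of 2.83e-05 to 0.0289. Its probes missed the threshold over all probes after normexp background correction (adjusted p = 0.0571 and 0.0747). Mest was called in 6 of 13 settings, with log2 differences of -0.46 to -0.29 and adjusted p of 0.00369 to 0.177. Meg3 was called in 3 settings (0.83 after quantile normalization, 0.93 when arrays were weighted and 1.07 when wild type replicate 2 was dropped), and over all 13 settings it ranged from 0.37 to 1.07 (adjusted p 0.00289 to 0.394).

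The counts of genes higher and lower over all genes were 418 and 778, and became 1009 and 1083 after quantile normalization, 277 and 349 after normexp correction, 985 and 2282 with array weights, and 179 and 236 with the replicate block. Among members, 1 was higher and 1 lower, against 3 higher after quantile normalization, 2 higher with array weights, and 0 lower after normexp correction, with trend and robust estimation and with the replicate block. Among other imprinted genes, 4 were higher and 2 lower, against 8 higher after quantile normalization, 1 and 0 after normexp correction, 2 and 1 with trend and robust estimation, 8 and 5 with array weights, 2 and 1 with the mean of all probes, and 1 and 1 with the replicate block. Leaving out 1 array gave 207 to 729 higher and 244 to 1217 lower over all genes, 1 to 2 higher and 0 to 1 lower among members, and 1 to 5 higher and 0 to 3 lower among other imprinted genes. The cause of these shifts was not tested, except that fits without an array have fewer samples.

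Over all genes, the count of higher genes moved by more than 1.5 times without knockout replicate 1 (273), knockout replicate 3 (219), wild type replicate 2 (729) or wild type replicate 3 (207). That of lower genes did so without knockout replicate 2 (337), knockout replicate 3 (244), wild type replicate 1 (1217) or wild type replicate 3 (304). Among other imprinted genes only 1 was higher without wild type replicate 3 or any single knockout array.

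Directions turned only in genes that were called in none of these settings. With 1 array left out, the log2 difference ran from -0.080 to 0.35 for Peg3 (-0.076 to 0.25 at ILMN_2677270), from -0.33 to 0.022 for Cdkn1c, from -0.052 to 0.043 for Plagl1 at its brightest probe, and from -0.011 to 0.13 and -0.0064 to 0.096 at the other Plagl1 probes ILMN_1252582 and ILMN_1240034. The mean of all Plagl1 probes gave 0.030. Of the 11 called genes in the lists other than the members and the cell type markers (whose genes were not recomputed), Dio3 and Phlda1 were called in all 13 settings, Dcn in 10 (not after normexp correction, with the mean of all probes or without knockout replicate 3) and the other 8 in 4 to 8, with no change of direction in any of them.

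The labels do not say what the replicate numbers mark. Deviations from the group means correlated at -0.41, -0.34 and 0.22 for same-numbered arrays over 11985 genes. Arrays with different numbers correlated at -0.15 to 0.47. The highest value was between knockout replicate 1 and wild type replicate 2, the arrays with the highest upper quartile. These correlations cannot tell whether same-numbered arrays shared a batch. The replicate block left Mest at a limma adjusted p of 0.153.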

Other observations

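Of the long noncoding RNAs named here, 4 had similar values over the arrays, a likeness noticed after the values had been seen. In Meg3, Rian, Kcnq1ot1 and Xist, wild type replicate 2 lay within the knockout range and the other wild-type arrays lay below every knockout array. Their log2 differences were 0.77 ± 0.25, 0.66 ± 0.30, 0.82 ± 0.31 and 0.60 ± 0.27 (limma SE, adjusted p of 0.123, 0.281, 0.181 and 0.282), and none of them passed. The pattern was not particular to noncoding RNAs. Both dimmer Grb10 probes, ILMN_2546546 and ILMN_1257352, had it as well (0.63 ± 0.23 and 0.38 ± 0.14). The share of all genes with this pattern was not counted, so it is given as a description of these arrays only.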
